A study of Mus musculus with 2 samples.

Results

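B16F10 cells of cluster C4 are 212 cycling mouse melanoma cells, out of 1574 B16F10 cells and 4156 cells in all. They were taken from the authors' deposited cell table as the cells that name the line B16F10 and the cluster C4 of a 5-way clustering. Single-cell 3' RNA was counted by unique molecular identifiers (UMIs) in B16F10, labelled a highly metastatic subclone, and in B16F0, its parental line, without any treatment named in the labels. Each line is a cultured line represented by 1 library, so nothing below has a replicate check, cells are not replicates, and no test was made. The C4 cells were set against the 986 cycling B16F10 cells of cluster C5, which come from the same library. Further groups were 306 B16F10 cells of C3, 59 non-cycling B16F10 cells of C5, 469 B16F0 cells of C4, and 944 cycling B16F0 cells outside C4. The clusters had been made by the authors from the expression of these same cells, so the ratios between clusters describe them and support nothing further.

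Mitochondrial DNA encodes a small set of core subunits of the respiratory chain and of ATP synthase, which are transcribed inside the organelle, while all other subunits come from nuclear genes. The integrated stress response is a separate programme in which phosphorylation of a translation initiation factor slows protein synthesis and favours translation of the transcription factor ATF4, which in turn raises genes of amino acid supply and stress. Mitochondrial dysfunction, amino acid shortage and misfolded protein in the endoplasmic reticulum are known inducers of it.

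The label of the cluster was checked first. All 212 C4 cells were classed as cycling, and all 212 lay in state 1 of the authors' trajectory, as did 981 of the 986 cycling C5 cells. Top2a, a topoisomerase of dividing cells, had 391 CPM (summed UMIs scaled to 1000000 per group) in C4 and 229.6 CPM in cycling C5, a log2 ratio of 0.77 with a 95% counting interval of 0.70 to 0.83. The respiratory complex subunit gene mt-Nd5 had 344 CPM in C4 and 268 CPM in cycling C5, a log2 ratio of 0.36 (0.29 to 0.42). Both markers were thus higher in C4, and cycling C5 held both as well. All melanocyte lineage markers were detected, and the 7 genes Mitf, Sox10, Pmel, Mlana, Dct, Tyrp1 and Tyr summed to 7734 CPM in C4 and 7740 CPM in cycling C5. Single markers differed either way, since Mlana had 950.0 CPM in C4 and 1750 CPM in cycling C5 and Pmel 438 CPM in C4 and 777 CPM in cycling C5, while Dct had 3529 CPM in C4 and 2780 CPM in cycling C5. Fibroblast markers summed to 4.69 CPM in C4 and 3.73 CPM in cycling C5 over 3 genes present of 5, and macrophage markers to 2.81 CPM in C4 and 3.31 CPM in cycling C5 over 3 genes present of 6, with Cd14 at 0 UMIs in C4. The B cell marker Cd79a stood at 0.469 CPM in C4 and 0.368 CPM in cycling C5, and the endothelial list at 67.2 CPM in C4 and 62.1 CPM in cycling C5, nearly all from Egfl7. The markers listed for T and NK cells, keratinocytes and erythroid cells were not among the 14959 genes with counts, so they had no level to give. In the 2-way clustering, 197 of the C4 cells were placed in F10 and 15 in F0. No C4 barcode was among the 6 barcode sequences that occurred in both libraries.

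C4 cells were shallower than cycling C5 cells. The median was 29693 UMIs per C4 cell (range 11721 to 60923) and 38122.5 UMIs per cycling C5 cell (10783 to 84433). The median number of genes was 5142.5 in C4 and 5562 in cycling C5. Each cell was then thinned to 24474 UMIs, which left out 44 C4 cells and 76 cycling C5 cells. The order turned round, with a median of 4674 genes in C4 and 4606 genes in cycling C5. Of the 168 C4 cells kept, 167 held 1% mitochondrial UMIs or more. Nearly all C4 cells under 1%, described below, were thus missing after thinning. In sum, C4 held 6400262 UMIs and cycling C5 held 38037961 UMIs. A count of 0 therefore allows up to 0.469 CPM in C4 and 0.0789 CPM in cycling C5 (3 counts). All intervals and floors cover counting error only. The part of depth in the results below was not tested beyond the alternatives named with them.

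The mitochondrially encoded share of UMIs was higher in C4 cells, with wide overlap. Its median per cell was 8.58% in C4 (quartiles 6.71% and 10.6%) and 6.15% in cycling C5 (quartiles 4.96% and 7.47%). The share ran between 0.0241% and 16.01% in C4 and between 2.34% and 15.99% in cycling C5. Of the C4 cells, 174 (82.1%, exact Clopper-Pearson interval 76.2% to 87.0%) lay above the cycling C5 median, and 122 cycling C5 cells (12.4%, interval 10.4% to 14.6%) lay at or above the C4 median. Over summed UMIs the share was 8.43% in C4 and 6.19% in cycling C5. C3, which is mostly non-cycling, stood between them at 7.77%. In B16F0 the order was the other way, with 4.94% in C4 and 5.58% in the cycling cells outside C4.

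**Figure D1:**
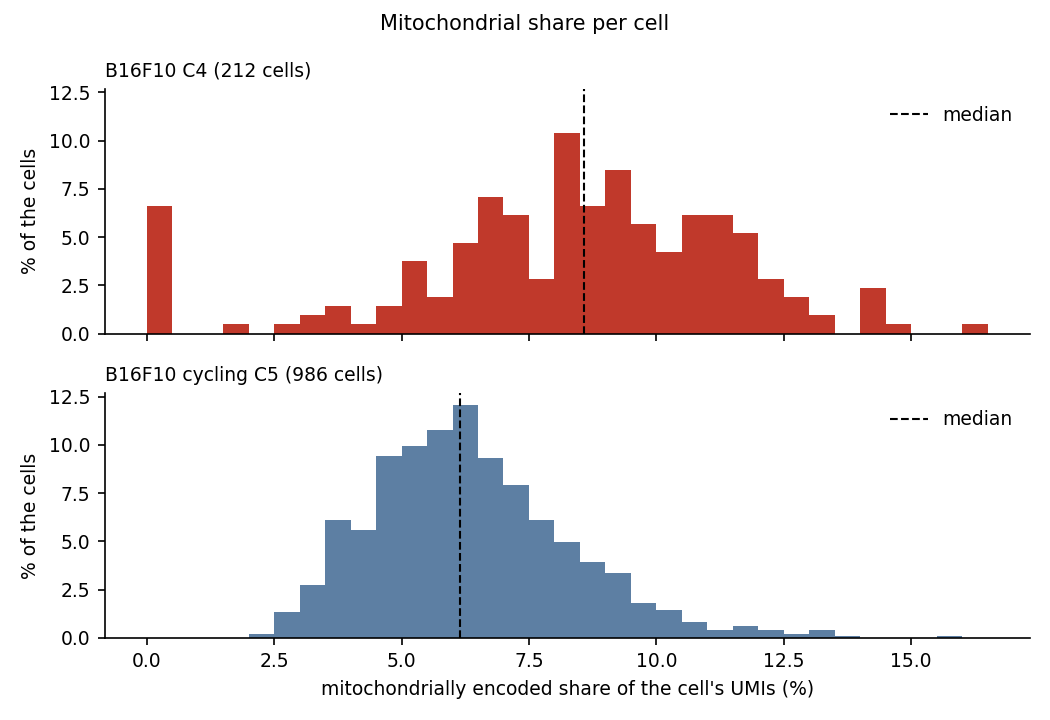
Histograms of the mitochondrially encoded share of UMIs per cell (x axis, percent) against the percentage of the cells in each group (y axis), with B16F10 C4 above and B16F10 cycling C5 below; dashed lines are the medians, 8.58% and 6.15%. The C4 histogram also has a separate bar of 14 cells below 1%, which cycling C5 lacks.

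The higher share was spread unevenly over the mitochondrial genes. Of the 13 protein genes, 12 reached the minimum of 20 CPM in the higher group, and all 12 had a log2 ratio above 0, with a median of 0.41 against 0.01 over all 5628 genes measured, although mt-Nd1 became -0.00 against the cycling C5 cells in the central UMI range of C4. A single one, mt-Co1, was past 1.5-fold, while 10.7% of all measured genes were that much higher in C4 and 12.2% that much lower. This gene, which encodes a catalytic core subunit of cytochrome c oxidase, had 10719 CPM in C4 and 6818 CPM in cycling C5, a log2 ratio of 0.65 (0.64 to 0.66). The other oxidase genes mt-Co2 and mt-Co3 stood at log2 ratios of 0.53 and 0.48, and the cytochrome b gene mt-Cytb at 0.46. The complex I subunit gene mt-Nd1 had 7291 CPM in C4 and 6797 CPM in cycling C5, a log2 ratio of 0.10 (0.09 to 0.12), although its neighbours in complex I, mt-Nd4 and mt-Nd2, stood at 0.51 and 0.39. As shares of the mitochondrial UMIs, mt-Nd1 took 8.65% in C4 and 10.98% in cycling C5, while mt-Co1 took 12.7% in C4 and 11.0% in cycling C5. Leaving out the 14 cells below 1% changed neither pair, since mt-Nd1 then took 8.65% and mt-Co1 12.7% of the C4 mitochondrial UMIs. mt-Nd6, which lies on the opposite strand, was near the same level in both groups at 11.7 CPM in C4 and 11.8 CPM in cycling C5, with an interval of -0.38 to 0.35. On GRCm38, mt-Nd1 spans positions 2751 to 3707 of the mitochondrial chromosome, mt-Co1 spans 5328 to 6872 and mt-Nd5 spans 11742 to 13565. Several of these genes overlap their neighbours, and the sources used here do not say how overlapping or opposite-strand reads were counted, so mt-Atp8, mt-Nd4l and mt-Nd6 are uncertain.

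**Figure D2:**
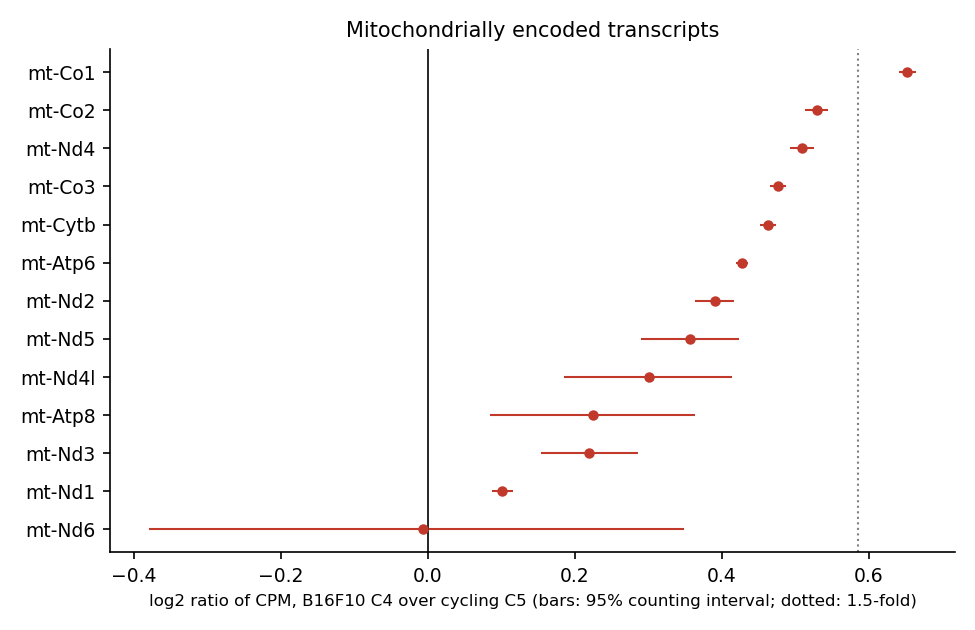
Log2 ratio of CPM in B16F10 C4 over cycling C5 (x axis) for each of the 13 mitochondrially encoded protein genes, ordered by ratio; bars are 95% counting intervals and the dotted line is 1.5-fold. mt-Co1 at 0.65 is the one gene past the line, while mt-Nd1 at 0.10 and mt-Nd6 at -0.01 are the lowest.

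Nuclear genes for mitochondria did not follow the mitochondrially encoded ones. At 1.5-fold, 605 genes of 5628 were higher in C4 (10.7%) and 689 were lower (12.2%). Scaling by TMM factors instead gave 443 higher and 883 lower, median-of-ratios factors gave 421 higher and 906 lower, and a total that leaves out mitochondrial and ribosomal protein genes gave 1055 higher and 605 lower. Among nuclear subunits of complex I, 0 of 37 were higher and 5 were lower, with a median log2 ratio of -0.27. Complex V, the ATP synthase, had 0 of 15 higher and 3 lower (median -0.38), and complex IV had 0 of 11 past 1.5-fold either way. Atp5c1, the gamma subunit gene of ATP synthase, had 295 CPM in C4 and 651 CPM in cycling C5, a log2 ratio of -1.14 (-1.21 to -1.08). Ndufa9, a complex I subunit gene, had 64.7 CPM in C4 and 134 CPM in cycling C5, a log2 ratio of -1.05 (-1.20 to -0.90). Complex III had 1 higher member of 9, Uqcrq, at 1910 CPM in C4 and 1193 CPM in cycling C5, which was named after its value was seen, and 3 lower members. Mitochondrial ribosomal protein genes had 0 of 75 higher and 11 lower (median -0.32), and the tricarboxylic acid cycle list 0 of 16 higher and 4 lower, among them Mdh2 at -0.97.

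Most measured genes that make or maintain mitochondrial transcripts stayed within 1.5-fold, as did 4334 of all 5628 measured genes. Of the list for mitochondrial DNA transcription and replication, 4 of 15 reached 20 CPM and 0 passed 1.5-fold. Of the list for mitochondrial RNA processing and stability, 10 of 20 reached 20 CPM. In it 0 were higher and 3 lower, with a median log2 ratio of -0.12, where 12.2% of all measured genes were lower. Tfam, which packages mitochondrial DNA and starts its transcription, had 57.7 CPM in C4 and 57.3 CPM in cycling C5, a log2 ratio of 0.01 (-0.15 to 0.17). Polrmt, the mitochondrial RNA polymerase gene, had 5.16 CPM in C4 and 6.52 CPM in cycling C5, with an interval of -0.91 to 0.19. Lrpprc, which stabilises mitochondrial messages, stood at 13.9 CPM in C4 and 14.0 CPM in cycling C5. Ppargc1a, a coactivator of mitochondrial biogenesis, was higher at 175 CPM in C4 and 91.0 CPM in cycling C5, a log2 ratio of 0.94 (0.84 to 1.04). Against the 122 cycling C5 cells with a mitochondrial share at or above the C4 median, that ratio became -0.03. Those cells were picked by their mitochondrial share, which itself sets the mitochondrially encoded genes, and all 13 of these had ratios below 0 against them, between -0.57 for mt-Nd1 and -0.09 for mt-Co1. Among mitochondrial chaperones and proteases, 3 of 13 were higher and 2 lower. Lonp1, the matrix protease gene, had 147 CPM in C4 and 61.9 CPM in cycling C5, a log2 ratio of 1.25 (1.14 to 1.36). The other higher ones, Hspa9 at 0.76 and Dnaja3 at 0.68, are matrix chaperone genes and were named after their values were seen.

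The highest ratio of any named gene belonged to Grb14, an adaptor that binds and restrains the insulin receptor. It had 191 CPM (Poisson interval 180 to 202) in C4 and 10.8 CPM (9.76 to 11.9) in cycling C5, a log2 ratio of 4.14 (3.98 to 4.31). Grb14 was seen in 73.2% of thinned C4 cells and in 15.3% of thinned cycling C5 cells, and in 79.7% of C4 cells and 21.6% of cycling C5 cells without thinning. Background from free RNA was not measured for this share, since both libraries hold melanoma cells alone and no cell type here should lack the gene. C3 held 118 CPM, the cycling C5 cells with a high mitochondrial share 18.1 CPM and non-cycling C5 21.9 CPM, so the C4 level was the highest and C3 the next. The ratio was 4.25 among cells with an S score above the G2/M score and 4.11 among the others. On GRCm38, Grb14 spans positions 64912476 to 65024987 on the minus strand of chromosome 2.

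Of the 12 genes with the highest ratios 1, Ppp1r15a, belongs to the stress response list of 21 genes described below. That list is a selection, so absence from it does not place a gene outside the stress programme. Ppp1r15a, the phosphatase subunit that reverses the integrated stress response, had 250.5 CPM in C4 and 34.8 CPM in cycling C5, a log2 ratio of 2.85 (2.74 to 2.95). It was seen in 97.0% of thinned C4 cells and in 52.1% of thinned cycling C5 cells, and without thinning in 96.2% of C4 cells and 64.4% of cycling C5 cells. Nupr1, a stress-induced chromatin protein gene, had 431 CPM in C4 and 74.7 CPM in cycling C5, a log2 ratio of 2.53 (2.45 to 2.61). Aldh1l2, a mitochondrial enzyme of folate metabolism, had 126 CPM in C4 and 20.6 CPM in cycling C5, a log2 ratio of 2.62 (2.47 to 2.76). Gadd45a, a growth arrest and DNA damage gene, stood at 2.23, with 129 CPM in C4 and 27.6 CPM in cycling C5. Tenm4, a teneurin of the cell surface, had 51.2 CPM in C4 and 7.97 CPM in cycling C5, and Angptl6, a secreted angiopoietin-like protein, had 79.5 CPM in C4 and 12.6 CPM in cycling C5. Them4, Cyb5r1, Gtpbp2, Hoxb9 and Glce completed the 12 highest, with log2 ratios between 1.92 and 2.23. Each of the 12 was higher in C4 than in C3, which in turn exceeded cycling C5 for every one of them.

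**Figure D3:**
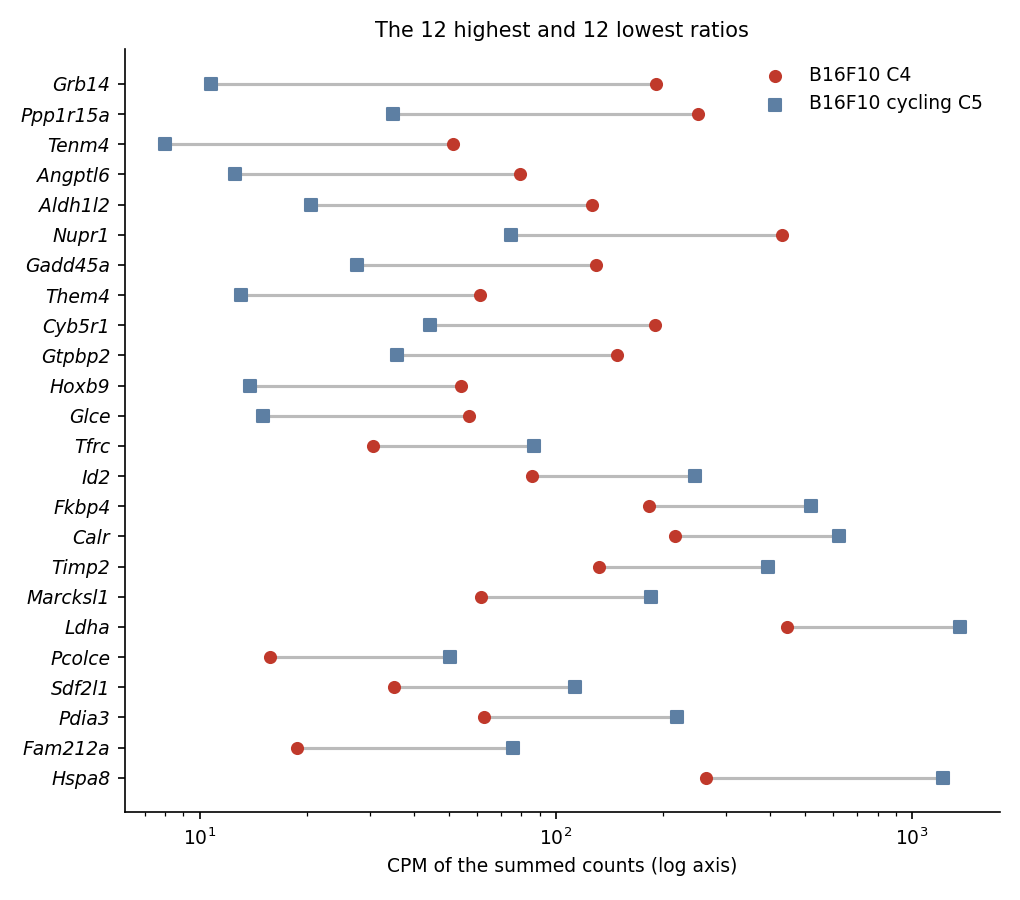
CPM of the summed counts (x axis, log scale) in B16F10 C4 (circles) and B16F10 cycling C5 (squares) for 24 genes at 50 CPM or more, namely the 12 top and 12 bottom ratios. The pairs run between Grb14, at 191 CPM in C4 and 10.8 CPM in cycling C5, and Hspa8, at 264 CPM in C4 and 1218 CPM in cycling C5.

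Across the list of ATF4 and the integrated stress response, 19 of 21 genes were measured, 9 were at least 1.5-fold higher in C4 and 0 lower, with a median log2 ratio of 0.58. Ddit3, the transcription factor CHOP, had 249 CPM in C4 and 76.3 CPM in cycling C5, a log2 ratio of 1.71 (1.62 to 1.79). Atf5, a related transcription factor, had 149 CPM in C4 and 55.9 CPM in cycling C5, a log2 ratio of 1.41 (1.30 to 1.52). Trib3, a pseudokinase that restrains the pathway, stood at 308 CPM in C4 and 119 CPM in cycling C5, and the cystine transporter gene Slc7a11 at 117 CPM in C4 and 47.2 CPM in cycling C5. Atf3 had 62.5 CPM in C4 and 25.8 CPM in cycling C5, Chac1, a glutathione-degrading enzyme, 118 CPM in C4 and 57.4 CPM in cycling C5, and Atf4 itself 402 CPM in C4 and 234 CPM in cycling C5. The biosynthetic targets differed less. Asns, which makes asparagine, had 104 CPM in C4 and 94.2 CPM in cycling C5, and Mthfd2, a mitochondrial folate enzyme, had 508 CPM in C4 and 463 CPM in cycling C5. Phgdh, the first enzyme of serine synthesis, had 200.1 CPM in C4 and 267 CPM in cycling C5, a log2 ratio of -0.42. Fgf21 and Gdf15, secreted factors of mitochondrial stress, were hardly detected, with 0.16 CPM and 0.47 CPM in C4 and 0.03 CPM and 0.11 CPM in cycling C5. Trib3, Chac1, Atf4, Asns, Mthfd2, Phgdh, Fgf21 and Gdf15 were named after their values were seen.

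Per cell, the whole list took a median of 36.5 UMIs per 10000 in C4 (range 14.0 to 79.2) and 24.5 in cycling C5 (range 6.20 to 58.6), so the cells overlapped. C3 had a median of 29.9. The B16F0 groups were near the C4 level, with a median of 39.6 in B16F0 C4 and 35.8 in the cycling B16F0 cells outside C4. Among cycling C5 cells with a mitochondrial share at or above the C4 median, the list stood at a median of 26.0, and Ppp1r15a had 250.5 CPM in C4 and 59.5 CPM in those cells. Against those cells 305 of 5634 genes were at least 1.5-fold higher in C4 (5.41%) and 411 were lower (7.29%).

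**Figure D4:**
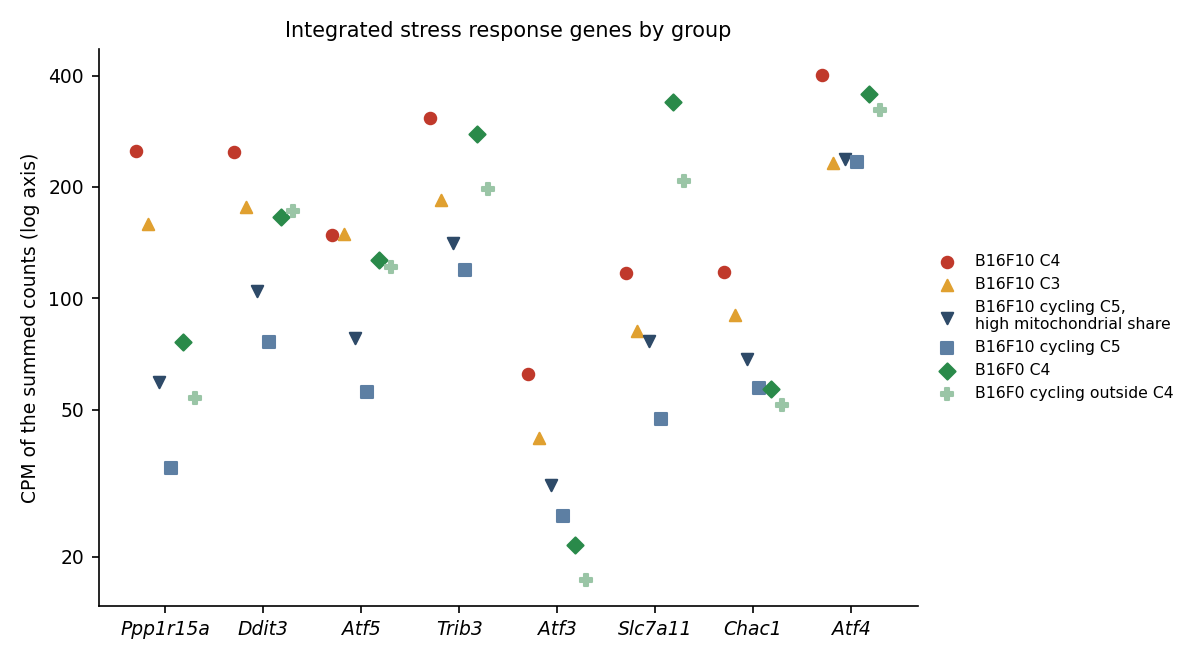
CPM of the summed counts (y axis, log scale) of 8 integrated stress response genes (x axis) in B16F10 C4, B16F10 C3, B16F10 cycling C5 cells with a mitochondrial share at or above the C4 median, all B16F10 cycling C5, B16F0 C4 and B16F0 cycling cells outside C4. For Ppp1r15a, C4 stands at 250.5 CPM, C3 at 159 CPM and cycling C5 at 34.8 CPM, while B16F0 C4 stands at 76.2 CPM and the other cycling B16F0 cells at 53.8 CPM.

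The promoters of some of these genes carry the composite C/EBP and ATF motif TGATGNAA, through which ATF4 and CHOP are known to act. RefSeq windows of GRCm38.p6 were searched on both strands over the 250 bases before each annotated RefSeq start. A gene with several windows was counted if any of them held the motif. The motif was in 6 of 18 list members with a window (33.3%), against 100 of 4531 measured genes (2.21%) and 1134 of 32851 windows in all (3.45%). The members with a match were Aars, Asns, Atf3, Chac1, Gars and Slc7a11. The list was of known ATF4 and integrated stress response genes, so its share was set by that choice and not by these cells. Atf3, Chac1 and Slc7a11 were past 1.5-fold higher in C4. Aars, Asns and Gars were within 1.5-fold, at log2 ratios of 0.54, 0.15 and 0.34. Of the 12 highest genes 1 of 10 with a window held it, namely Nupr1, and of the 12 lowest 0 of 10. These are matches of letters and not mapped binding sites. The stretches of genes more than 2-fold higher in C4 are shown because these genes were higher in the same cells, and run 5′ to 3′ on the strand of the gene, with the motif on either strand in capitals.
Nupr1: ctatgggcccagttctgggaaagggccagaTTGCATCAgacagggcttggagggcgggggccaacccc
Slc7a11: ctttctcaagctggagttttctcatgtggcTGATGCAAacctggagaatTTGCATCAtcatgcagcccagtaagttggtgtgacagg
Atf3: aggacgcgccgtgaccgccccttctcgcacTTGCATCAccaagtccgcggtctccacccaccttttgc
Chac1: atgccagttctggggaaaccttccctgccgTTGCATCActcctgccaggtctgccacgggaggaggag
The Nupr1 stretch is chr7:126625543-126625610 on the minus strand, that of Slc7a11 is chr3:50443623-50443709 on the minus strand, that of Atf3 is chr1:191183406-191183473 on the minus strand, and that of Chac1 is chr2:119351019-119351086 on the plus strand. The first motif base lies 110 bases before the RefSeq start for Nupr1 and Atf3, 193 bases for Chac1 and 66 bases for Slc7a11. The Slc7a11 window holds the motif once on each strand. The stretches of Nupr1 and Atf3 lie inside the GENCODE spans of these genes, 126623249 to 126630861 and 191170296 to 191218039. For these genes the RefSeq start used is thus not the outer end of the gene.

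The endoplasmic reticulum branch of the stress lists went the other way. Of 16 measured genes of the unfolded protein response, 9 were lower in C4 and 1 was higher, with a median log2 ratio of -1.14. Pdia3, a disulfide isomerase of glycoprotein folding, had 63.0 CPM in C4 and 219 CPM in cycling C5, a log2 ratio of -1.80 (-1.94 to -1.65). Calr, a calcium-binding chaperone, had 216 CPM in C4 and 625 CPM in cycling C5 (-1.53), and Sdf2l1 had 35.0 CPM in C4 and 113 CPM in cycling C5 (-1.69). Hspa5, the central chaperone of that compartment, was within 1.5-fold at 207 CPM in C4 and 223 CPM in cycling C5, and the 1 higher gene was Dnajb9 at 0.69. Both were named after their values were seen. Heat shock and cytosolic chaperone genes were lower in 10 of 14 cases and higher in 0 (median -0.86). Hspa8, the constitutive cytosolic chaperone, had the lowest ratio of the named genes, with 264 CPM in C4 and 1218 CPM in cycling C5, a log2 ratio of -2.20 (-2.28 to -2.13). Its median in thinned cells was 4 UMIs in C4 and 25 UMIs in cycling C5. Hsp90ab1 had 1011 CPM in C4 and 2352 CPM in cycling C5, and Fkbp4, a co-chaperone of that protein, had 182 CPM in C4 and 521 CPM in cycling C5. On GRCm38, Hspa8 spans positions 40800984 to 40810087 on the plus strand of chromosome 9.

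Glycolysis genes were mostly lower in C4. Of its 14 measured genes 12 were at least 1.5-fold lower in C4 and 0 were higher, with a median log2 ratio of -0.93. Ldha, which turns pyruvate into lactate, had 446 CPM in C4 and 1363 CPM in cycling C5, a log2 ratio of -1.61 (-1.67 to -1.56). Aldoa, the aldolase gene, had 457 CPM in C4 and 1175 CPM in cycling C5 (-1.36), and Pfkl, a phosphofructokinase gene, had 12.7 CPM in C4 and 34.7 CPM in cycling C5 (-1.46). Targets of hypoxia were divided, since Vegfa, the endothelial growth factor gene, had 25.5 CPM in C4 and 9.04 CPM in cycling C5 (1.49, interval 1.22 to 1.77), while Bnip3, a mitophagy receptor gene, had 25.3 CPM in C4 and 43.8 CPM in cycling C5 (-0.79). Hspa8, Ldha, Aldoa and the ribosomal protein genes have processed pseudogenes, and the sources used here do not say how shared reads were counted.

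Cholesterol synthesis and proteasome genes were lower as well. Of 12 measured cholesterol genes 8 were lower and 0 higher (median -0.85), among them Insig1, a sterol-sensing regulator gene of the pathway, at 13.1 CPM in C4 and 38.6 CPM in cycling C5. All 31 proteasome genes had a log2 ratio below 0, and 22 were lower at 1.5-fold (median -0.69), with Psma7 at 270 CPM in C4 and 611 CPM in cycling C5. Tfrc, the transferrin receptor gene for iron uptake, had 30.6 CPM in C4 and 86.9 CPM in cycling C5, a log2 ratio of -1.51 (-1.72 to -1.30), and Sod2, the mitochondrial superoxide dismutase gene, had 60.9 CPM in C4 and 149 CPM in cycling C5. Id2, an inhibitor of differentiation, Marcksl1, Timp2, Pcolce and Fam212a completed the 12 lowest, with log2 ratios between -2.01 and -1.51. The 81 cytosolic ribosomal protein genes had none past 1.5-fold, with a range of -0.48 to 0.47. The pigment list had 1 higher and 5 lower members of 18, with Mlana among the lower ones, while Met, a receptor kinase gene of melanoma invasion, was at a like level with 131 CPM in C4 and 133 CPM in cycling C5. Tmsb4x, an actin-binding peptide gene, had 65.6 CPM in C4 and 102 CPM in cycling C5, a log2 ratio of -0.63, and Kdm5b, a histone demethylase gene of slow-cycling melanoma cells, had 14.1 CPM in C4 and 8.44 CPM in cycling C5, below the minimum level. The authors' GSVA score for MITF had a median of -0.264 in C4 and -0.182 in cycling C5.

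Some noncoding RNAs and some genes of large chromatin proteins were on the higher side. Malat1, a nuclear long noncoding RNA, had 6721 CPM in C4 and 3722 CPM in cycling C5, a log2 ratio of 0.85 (0.84 to 0.87), and Kcnq1ot1 stood at 0.69, while Neat1, a scaffold of nuclear paraspeckles, had 110.3 CPM in C4 and 111 CPM in cycling C5. Over the alternative settings the median of the nuclear long noncoding RNA list, with 3 measured members, ran between 0.09 and 0.82. The ratio of Kcnq1ot1 ran between 0.09 and 0.77. Of 4 measured host genes of small nucleolar RNAs 3 were higher, led by Snhg12 at 109.7 CPM in C4 and 29.7 CPM in cycling C5, a log2 ratio of 1.89 (1.75 to 2.02). Among 16 large chromatin proteins 3 were higher and 0 lower (median 0.48), with the histone demethylase gene Kdm6b at 1.37.

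Other lists are set here beside the shares over all measured genes, 10.7% higher and 12.2% lower in C4, and several were near these shares. Among immediate early genes 3 of 7 were higher and 2 lower, with Atf3 above and Fos, a subunit of the factor AP-1, below at 19.8 CPM in C4 and 41.9 CPM in cycling C5. Of 10 measured p53 targets 2 were higher, Gadd45a and the sestrin gene Sesn2, and 0 were lower. The apoptosis list had 1 higher member of 16, Bcl2, which restrains cell death, at 83.1 CPM in C4 and 44.4 CPM in cycling C5, and 5 lower ones. Ribosome biogenesis genes had 0 of 20 higher and 5 lower, led by the nucleolar chaperone gene Npm1 at 1069 CPM in C4 and 2019 CPM in cycling C5. Linker histone gene H1f0 had 746 CPM in C4 and 422 CPM in cycling C5, one of 2 higher histone genes of 8 against 1 lower. Actin cytoskeleton genes had 0 of 20 higher and 7 lower, lysosome and autophagy genes 1 of 19 higher and 4 lower, and mitochondrial import genes 0 of 22 higher and 3 lower. Fusion and fission genes had 1 of 7 higher and 1 lower, and mitophagy genes 2 of 9 higher and 2 lower. Oxidative stress and iron genes had 2 of 22 higher and 7 lower. Respiratory complex II had 0 of 4 higher and 2 lower, and MHC class I genes 0 of 4 higher and 1 lower.

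**Figure D5:**
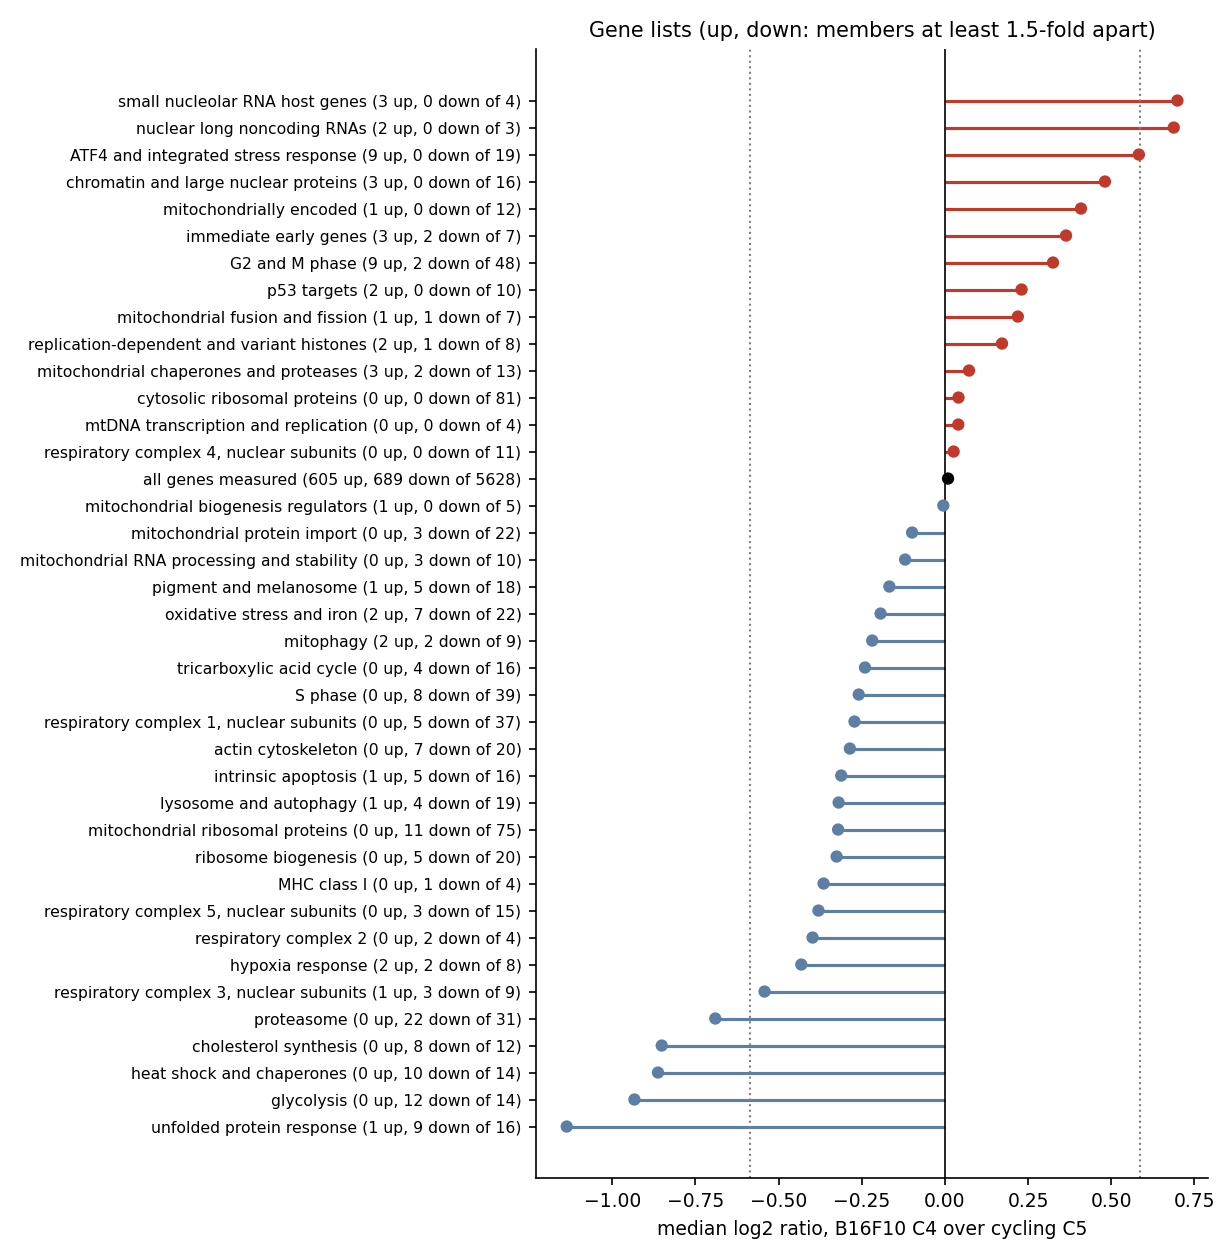
Median log2 ratio of B16F10 C4 over cycling C5 (x axis) for each gene list with at least 3 measured members, with the number of members at least 1.5-fold higher or lower beside its name; dotted lines are 1.5-fold and the black point is the median of all 5628 genes, 0.01. The unfolded protein response at -1.14 and glycolysis at -0.93 are lowest, and the small nucleolar RNA host genes at 0.70 and nuclear long noncoding RNAs at 0.69 are highest.

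Within the cycle, C4 leaned to G2 and M phase. The deposited G2/M score had a median of 0.159 in C4 and 0.0878 in cycling C5, and the S score a median of 0.0799 in C4 and 0.122 in cycling C5. The G2/M score exceeded the S score in 116 of 212 C4 cells (54.7%, interval 47.8% to 61.6%) and in 454 of 986 cycling C5 cells (46.0%, interval 42.9% to 49.2%). Of 48 measured G2/M genes 9 were higher and 2 lower (median 0.33), with the mitotic kinesin gene Kif11 at 52.3 CPM in C4 and 26.3 CPM in cycling C5, but Ccnb2, a mitotic cyclin gene, at 68.1 CPM in C4 and 129 CPM in cycling C5. Of 39 S phase genes 0 were higher and 8 lower (median -0.26), among them Cdc6, a replication licensing gene, at 10.3 CPM in C4 and 21.6 CPM in cycling C5. The mitochondrial share did not follow this leaning, with a median of 8.58% in the 96 C4 cells with the higher S score and 8.63% in the 116 with the higher G2/M score.

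The members were not uniform, and 14 of the 212 cells (6.60%, interval 3.66% to 10.8%) stood apart with under 1% mitochondrial UMIs. Their shares ran between 0.0241% and 0.346%, and the next C4 cells held 1.81% and 2.98%. Of 16 such B16F10 cells, 14 were in C4, 1 in C3, 1 among non-cycling C5 cells and 0 of 986 among cycling C5 cells, which allows a share of up to 0.373%. In B16F0, 6 of 16 such cells were in C4. The 14 cells had a median of 18881.5 UMIs and 3202 genes, against 30288 UMIs and 5176 genes in the other 198 C4 cells. The lower limit of genes over all B16F10 cells was 3011, and it was reached by 1 of the 14.

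Other transcripts were sparse in these 14 cells along with the mitochondrial ones. Their 256216 UMIs allow up to 11.7 CPM for a count of 0, so genes were compared at 100 CPM or more in the higher group. Of 1897 such genes, 868 were higher in the 14 cells (45.8%) and 450 were lower (23.7%), and these cells had been picked by their mitochondrial share. Malat1 had 35.1 CPM in the 14 cells and 6999 CPM in the other C4 cells, a log2 ratio of -7.64 (-8.77 to -6.71). P4hb, a disulfide isomerase gene of the endoplasmic reticulum, had 2 UMIs or 7.81 CPM in the 14 cells and 265 CPM in the other C4 cells, a log2 ratio of -5.09 (-8.13 to -3.23). Met had 0 UMIs in the 14 cells and 137 CPM in the other C4 cells, which makes it at least 11.7-fold lower against a floor of 3 counts over the 14 cells. Tyrp1, an enzyme of pigment synthesis, had 519 CPM in the 14 cells and 2615 CPM in the others. Top2a had 117 CPM in the 14 cells and 402 CPM in the others, a log2 ratio of -1.78 (-2.35 to -1.26). The marker mt-Nd5 had 1 UMI in the 14 cells. Of 23 G2/M genes at 100 CPM or more, 10 were higher in the 14 cells and 5 were lower. On the higher side, Prdx1, a cytosolic peroxiredoxin, had 7521 CPM in the 14 cells and 601 CPM in the others, a log2 ratio of 3.65 (3.57 to 3.73). All 28 measured proteasome genes, all 10 glycolysis genes and all 11 heat shock and chaperone genes were at least 1.5-fold higher in the 14 cells, with medians of 1.93, 1.62 and 1.93, and all 5 measured unfolded protein response genes were lower (median -2.66). The stress genes were divided, since Nupr1 had 1222 CPM in the 14 cells and 398 CPM in the others and Ddit3 464 CPM in the 14 cells and 240 CPM in the others. Slc7a11, by contrast, had 0 UMIs in the 14 cells and 122 CPM in the others, at least 10.4-fold lower. Over the whole stress response list the median was 60.8 UMIs per 10000 in the 14 cells and 36.2 in the others. Of the 18 list genes at 100 CPM or more, 8 were higher in the 14 cells and 4 were lower. These counts were near the shares over all 1897 genes, and the median log2 ratio was 0.46 in the list and over all 1897. Grb14 was found in 10 of the 14 cells.

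The ratios of C4 over cycling C5 were then taken without these 14 cells. The 198 remaining cells had 701 of 5679 genes higher than cycling C5 (12.3%) and 793 lower (14.0%). The log2 ratio of Grb14 was then 4.17, of Ppp1r15a 2.88, of Nupr1 2.42, of Hspa8 -2.36 and of Ldha -1.72. The glycolysis median was -1.03 and that of the proteasome -0.87. Glycolysis again had 12 of 14 members lower, heat shock and cytosolic chaperones had 13 of 14 lower (median -1.01), the proteasome had 26 of 31 lower, and the stress response list had 10 of 19 higher and 1 lower.

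The C4 cells were also compared by their mitochondrial share. The 106 cells at or above the median share were set against the 106 below it. Here 106 of 5581 genes were higher in the cells with the larger share (1.90%) and 244 were lower (4.37%). With a total lacking the mitochondrial genes, 194 were higher and 175 lower, so the excess of lower genes depended on the total used. The proteasome had 10 of 31 members lower and 0 higher, glycolysis 3 of 11 lower and 0 higher, heat shock and chaperones 4 of 13 lower and 0 higher, and Gapdh, a glycolytic enzyme gene named after its value was seen, had 1022 CPM in the upper and 1766 CPM in the lower set. Without the 14 cells, 67 of 5592 genes were higher (1.20%) and 144 lower (2.58%), and these lists had 4 of 31, 1 of 11 and 3 of 13 members lower. The 14 cells all lay in the lower set, and their own levels of these lists were the higher ones given above. Ppargc1a had 239 CPM in the upper and 111 CPM in the lower set, a log2 ratio of 1.11 (0.93 to 1.30), and 1.02 without the 14 cells. Of the 12 genes with the highest ratios over cycling C5, none was past 1.5-fold between the sets with or without the 14 cells, although Angptl6 was close to it. Grb14 had 193 CPM in the upper and 189 CPM in the lower set, Ppp1r15a 293 CPM in the upper and 208 CPM in the lower set (0.49, and 0.53 without the 14 cells), and Angptl6 95.3 CPM in the upper and 63.7 CPM in the lower set (0.58, and 0.55 without them). The stress response list stood at 0 higher and 2 lower of 19 with a median of -0.00. Without the 14 cells it stood at 0 higher and 0 lower of 19 with a median of 0.09. Over 168 thinned C4 cells, Spearman's rho between the stress response list and mitochondrial UMIs was 0.01, and that between the glycolysis list and mitochondrial UMIs was -0.31. For the 167 of them with 1% mitochondrial UMIs or more, the values were 0.03 and -0.29. These cells share 1 library and 1 depth, and the coefficients describe sparse counts.

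C3, the mostly non-cycling B16F10 cluster, was compared with C4 next. Against C3, 928 of 5512 genes were higher in C4 (16.8%) and 327 were lower (5.93%). S and G2/M genes made up part of this, with 34 of 34 and 47 of 48 higher. Grb14 had 191 CPM in C4 and 118 CPM in C3, Nupr1 431 CPM in C4 and 322 CPM in C3, and Atf5 149 CPM in both. Of the stress response list 6 of 19 were higher in C4 than in C3 (median 0.44), and all 15 measured glycolysis genes were lower (median -1.01). Hspa8 had 264 CPM in C4 and 784 CPM in C3.

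B16F0 cells of the same cluster showed a smaller set of differences. Among them 467 of 469 were cycling, and against the cycling B16F0 cells outside C4, 230 of 5144 genes were higher (4.47%) and 80 were lower (1.56%). In the 2-way clustering 92 of the 469 cells were placed in F10, against 13 of the 944 cycling B16F0 cells outside C4. Trajectory state 1 held 152 of the 469 and 13 of the 944. The part of these cells in the ratios was not tested. The G2/M list had 17 of 48 members higher and 0 lower (median 0.47). In the stress response list 1 of 18 was higher (median 0.14), and 0 of 12 mitochondrially encoded genes passed 1.5-fold (median -0.14). Grb14 had 12.6 CPM in B16F0 C4 and 3.25 CPM in the other cycling B16F0 cells, a log2 ratio of 1.95 (1.62 to 2.29). Gadd45a had 51.7 CPM in B16F0 C4 and 23.2 CPM in the other cycling B16F0 cells (1.16), and Ppp1r15a 76.2 CPM in B16F0 C4 and 53.8 CPM in the others (0.50). Nupr1 stood at 0.11, Aldh1l2 at 0.11 and Hspa8 at -0.45. Whether the 2 lines differ in these ratios was not tested, since each has 1 library.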

How the data were processed

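The 2 libraries, 1 for B16F10 and 1 for B16F0, used 10x Chromium chemistry v2, per the labels' protocols. The submitters' processing notes name Cell Ranger 3.0.0, Seurat 3.0 and mm10, without role or order. The authors deposited raw UMI counts (14959 genes, 4156 cells), with the unit read off their whole values, and natural log values, which in the 200 genes checked equal the natural log of 1 plus UMIs per 10000. The clusters, the cycling class and the S, G2/M and GSVA scores of each cell were deposited by the authors, and the sources used here do not say how they were made. The cycling class equals a score above 0 for S or G2/M in every cell.

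All deposited cells were kept and no doublet caller was run. Counts were summed over the cells of a group and scaled to CPM. Log2 ratios carry exact conditional binomial 95% intervals, CPM exact Poisson intervals, and shares of cells Clopper-Pearson intervals. Genes were called at 1.5-fold with 20 CPM or more in the higher group. List medians need 3 measured members. Cells were thinned to 24474 UMIs, drawn without replacement, a depth that 10% of C4 and cycling C5 cells do not reach. Named genes are the 13 mitochondrial genes, the 12 highest and 12 lowest ratios at 50 CPM or more (leaving out predicted, ribosomal protein and mitochondrial genes), the 3 largest ratios of each list and 12 genes fixed by name; marker genes, genes of the 14 cells below 1% mitochondrial UMIs and others marked in the text fall outside that rule. The members and lists were chosen with earlier results of these data known. The ratio step was tested on simulated counts. Alternatives were edgeR TMM factors, DESeq2 size factors, other totals, CPM minimums, folds and sets of cells. Gene positions are from GENCODE M21. The work was done in R 4.3.3 with edgeR 4.0.16 and DESeq2 1.42.0, and in Python 3.11.15 with matplotlib 3.10.9, pandas 2.3.3, scipy 1.17.1 and numpy 2.4.6.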

Additional observations from a re-analysis of the deposited data

Results flagged for a closer look

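For 4 named genes the log2 ratio of C4 over the other cycling cells was at least 1.5-fold in B16F10 and at least 1.5-fold the opposite way in B16F0, and whether the lines differ was not tested. Tubb4b, a tubulin gene of the G2/M list, had a log2 ratio of -0.96 in B16F10 (102 CPM in C4 and 198 CPM in cycling C5) and 0.66 in B16F0 (223 CPM in C4 and 141 CPM outside C4). Trpm1, a melanocyte cation channel gene, had -1.18 in B16F10 and 0.77 in B16F0. Gpr143, a melanosome receptor gene, had -1.03 in B16F10 and 0.68 in B16F0. Vdac2, a channel gene of the outer mitochondrial membrane, had -1.10 in B16F10 and 0.75 in B16F0.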

How the results depend on the processing

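No paired analysis was possible because each line has 1 library, the labels give no replicate numbers and no test was made. Over 148 named genes and 13 alternatives, 1462 ratios moved by less than their counting interval, 460 moved by more and 2 that were past 1.5-fold changed sign, both against the cycling C5 cells picked for a high mitochondrial share (mt-Co1 at -0.0872 and Ppargc1a at -0.0293). Ratios within 1.5-fold that changed sign and left their counting interval are counted among the 460, such as mt-Nd1 at -0.57 and mt-Co2 at -0.21 against those cells. Sign changes inside the interval are counted among the 1462, as for Tfam, which ran between -0.09 and 0.09. Of the list medians 535 moved by less than 0.1 and 86 by more. The set of 605 higher genes became 1055 with a total lacking mitochondrial and ribosomal protein genes, 305 against the high-share C5 cells, 913 at 10 CPM, 255 at 50 CPM, 2684 with no minimum and 152 at 2-fold. The 689 lower genes became 411 against the high-share C5 cells, 433 at 50 CPM, 3108 with no minimum and 181 at 2-fold. The count of lists with a median past 1.5-fold on the higher side was 2, and became 1 after leaving out the 5% deepest cells, 1 in the central UMI range of C4 and 0 against the high-share C5 cells, where the 5 lists on the lower side became 3.

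The difference of 2.43 percentage points in median mitochondrial share became 2.52 after leaving out those deepest cells, 2.88 after thinning and 2.37 against all other cycling B16F10 cells. It became 2.03 when the cycling C5 cells alone were held to the central UMI range of C4, 20367 to 39796 UMIs. It was 2.76 without the cells below 1%, 2.28 without the cells placed in F0 and 2.24 over summed UMIs. The ratio of median UMIs, 0.779, became 0.908 against the cycling C5 cells in that central range and 0.794 without the cells below 1%. The ratio of median genes, 0.925, became 0.968 within that range and reversed to 1.01 after thinning. The difference in median G2/M score, 0.0714, became 0.0558 after leaving out the deepest cells and 0.0874 after thinning. It became 0.0925 against the cycling C5 cells in the central UMI range and 0.0609 without the cells placed in F0. The mt-Co1 share of mitochondrial UMIs differed by 1.70 points, by 1.83 without the cells placed in F0 and by 1.48 as a mean over cells, and that of mt-Nd1 by -2.33 points and by -2.41 as a mean over cells. Within C4, the 106 higher genes became 194 with a total lacking mitochondrial genes. They became 325 between the outer of 3 equal sets and 67 without the cells below 1%. The 244 lower genes became 175 with a total lacking mitochondrial genes, 533 between the outer sets and 144 without those cells. The alternatives without the cells below 1%, without the cells placed in F0 and against the high-share C5 cells were chosen after seeing the data. The cause of these changes was not tested. Depth limits genes under 20 CPM, where few UMIs stand behind a ratio, and with 1 library per line the spread between cultures is unknown.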
